A study of Mus musculus with 3 samples.

Results

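The p53 target genes examined here are 10 genes taken by symbol as established targets of p53: Cdkn1a, Gadd45a, Plk2, Mdm2, Ccng1, Trp53inp1, Zmat3, Bax, Phlda3 and Perp. All 10 were found among the 31053 genes of the matrices, and all 10 had UMIs (unique molecular identifiers, the counted RNA molecules) in every library, at least 50 in each comparison. They were measured in bladder lining (urothelium) from mice by sequencing the 3' ends of RNA from single cells in droplets. The study has 3 libraries, 1 from wild-type mice, 1 from Lpar6 knockout (KO) mice and 1 from Cab39l KO mice, and each library combines the cells of 15 mice, so single animals cannot be told apart. The product of Lpar6 is a lysophosphatidic acid receptor, that of Cab39l a scaffold bound by the kinase LKB1, and the labels give neither strain, age, sex nor the deleted part of either gene. Levels were summed over urothelial cells, defined as barcodes with at least 5000 UMIs, at most 20% mitochondrial UMIs and at least 0.2% of UMIs from the uroplakin genes Upk1a, Upk1b, Upk2 and Upk3a. This rule kept 13476 of 25784 barcodes. With 1 library per group there is no replicate, so differences were not tested. Intervals are exact 95% intervals that cover counting error only.

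The transcription factor p53 (gene Trp53) is stabilised when DNA is damaged or cells are stressed, and it then raises the transcription of genes that halt the cell cycle, repair DNA, start apoptosis or shut p53 off again. Many of these genes are also transcribed without p53, through growth-factor and stress signalling or, in stratified epithelia, through the related factor p63. In the urothelium p53 is best known as a tumour suppressor, and p63 marks its basal cells.

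p53 binds DNA at pairs of a motif of 10 bases, called a decamer here and named only, since its letters include ambiguous bases. The decamer is its own reverse complement, so each match holds on both strands. RefSeq start-site windows (GRCm38.p6, 250 bases before to 50 after each start) were given for 7 of the 10 genes, and Trp53inp1, Zmat3 and Perp were not examined for it. At least 1 decamer without mismatch lay in a window of 5 of these 7 genes, against 9.55% of all 27025 genes with a window. The 5 stretches are shown because they come from the only genes of these 7 with the letters of the motif in a window. Each is printed 5′ to 3′ along the gene's strand, with each decamer in capitals, of which Cdkn1a has 2.
Cdkn1a, chr17:29090876-29090967, plus strand: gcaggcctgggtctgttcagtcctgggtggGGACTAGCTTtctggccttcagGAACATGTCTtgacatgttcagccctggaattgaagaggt
Gadd45a, chr6:67037428-67037457, minus strand: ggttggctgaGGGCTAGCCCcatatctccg
Mdm2, chr10:117710905-117710974, minus strand: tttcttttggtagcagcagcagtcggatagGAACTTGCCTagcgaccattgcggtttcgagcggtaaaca
Ccng1, chr11:40755432-40755501, minus strand: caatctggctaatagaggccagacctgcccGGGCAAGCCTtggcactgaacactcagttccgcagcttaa
Bax, chr7:45467060-45467129, minus strand: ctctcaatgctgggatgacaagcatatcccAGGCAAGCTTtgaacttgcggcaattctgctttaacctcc

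Of the 7 genes with a window, Cdkn1a was the only 1 with a pair of matching decamers separated by at most 13 bases, in the more upstream of its 2 windows. Such a pair lay in 0.0731% of all 32851 windows. When 1 mismatch over the pair was allowed, Cdkn1a, Bax and Ccng1 had one, against 1.24% of all genes. No decamer was found in the windows of Phlda3 and Plk2 or in the second Cdkn1a window, which says only that these letters are not in those windows. A match is a run of letters and not a measured binding site.

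The urothelial rule kept 3176 wild-type, 4834 Lpar6 KO and 5466 Cab39l KO cells, with 78491895, 128620816 and 159977320 UMIs. Median depth was 22252.5, 26994 and 29960.5 UMIs per cell. The 4 uroplakins were present in all libraries, at a median of 0.714 to 1.02% of a cell's UMIs. Lpar6 was at 0 UMIs in its own knockout, against 13.8 CPM (counts per 1e6 UMIs of the summed cells) in wild type and 12.1 CPM in the Cab39l KO. Cab39l remained at 31.7 CPM in its knockout, against 112 CPM in wild type and 94.0 CPM in the Lpar6 KO. The wild-type library stood apart in several ways. Its median mitochondrial share was 9.02% against 6.27 and 6.17%, and transcripts resembling ribosomal RNA summed to 12359 CPM against 2169 and 2015 CPM. Markers of epididymis and prostate summed to 275 CPM in the Cab39l KO and to at most 10.2 CPM in the others. Immune markers were near 0, between 3.65 and 30.0 CPM summed over 10 genes. Haemoglobin genes were not, and 4 of them summed to 308 CPM in wild type, 149 CPM in the Lpar6 KO and 66.2 CPM in the Cab39l KO. The libraries shared 16 to 19 cell barcodes pairwise, of which 3 to 8 were urothelial in both. The part of any of these in the results below was not tested.

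The 10 genes together made up 891 CPM in wild type, 716 CPM in the Lpar6 KO and 746 CPM in the Cab39l KO. Perp alone supplied 44.8 to 48.2% of their UMIs in each library, and Plk2 at most 0.309%. The order of levels was nearly fixed. Perp ranked first and Plk2 last in every library, Ccng1, Gadd45a and Zmat3 kept ranks 5, 6 and 9, and the others changed places only within Bax, Cdkn1a and Phlda3 or within Mdm2 and Trp53inp1. In wild type the intervals of Cdkn1a and Bax overlapped, as did those of Trp53inp1 and Mdm2, and all other neighbours were apart. A 3' tag gives 1 UMI per molecule whatever its length, so these levels were compared without dividing by length.

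**Figure D1:**
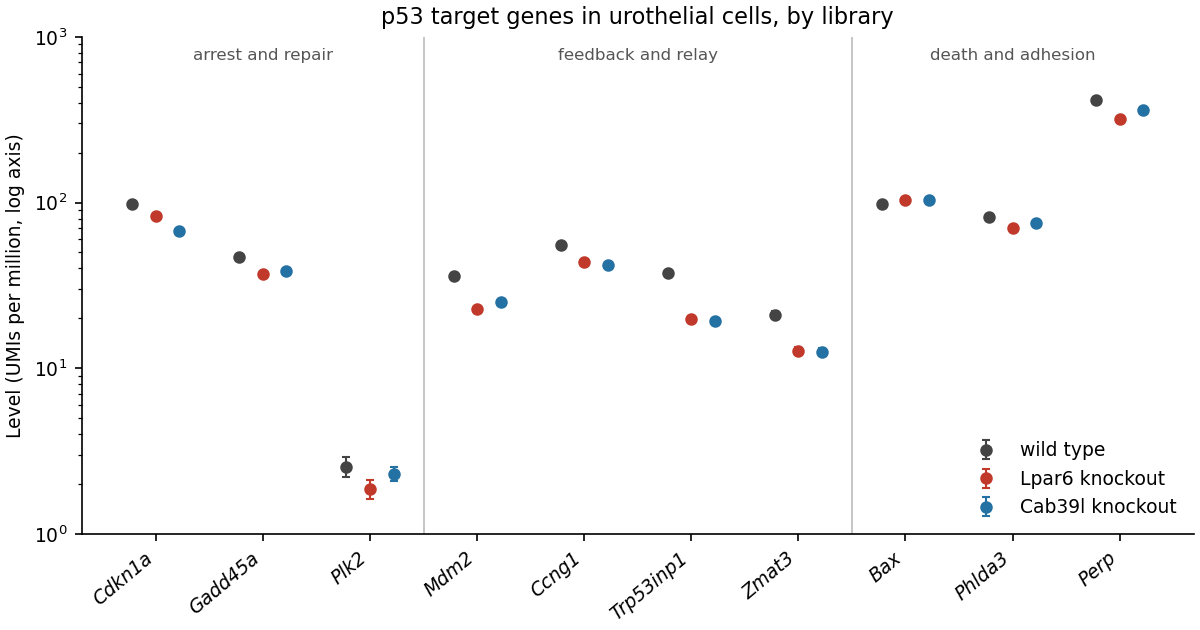
Levels of the 10 p53 target genes (CPM, log axis) in summed urothelial cells of the wild-type, Lpar6 KO and Cab39l KO libraries, 1 point per library with exact 95% Poisson intervals, which are mostly smaller than the points. Perp sits highest and Plk2 lowest in each library, and the wild-type point is the highest for all genes but Bax at this scaling by total UMIs. TMM scaling changes the sign of 5 of the 10 differences in each comparison with wild type.

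Among the genes of cell-cycle arrest and repair, Cdkn1a (ENSMUSG00000023067, chr17:29090976-29100727 of mm10) encodes p21, an inhibitor of cyclin-dependent kinases. Wild-type cells held 98.2 CPM (96.0 to 100.4) of it, Lpar6 KO cells 83.3 CPM (81.7 to 84.9) and Cab39l KO cells 67.8 CPM (66.5 to 69.1). All 3 intervals were apart, with wild type highest and the Cab39l KO lowest. The log2 differences from wild type, computed on CPM + 1, were -0.24 and -0.53 for the Lpar6 and Cab39l KOs, but 0.16 and -0.12 after TMM scaling, which turns the sign for the Lpar6 KO. Gadd45a (ENSMUSG00000036390, chr6:67035096-67037457), which acts in DNA repair and stress kinase signalling, was measured at 47.2, 37.2 and 38.4 CPM in wild type, Lpar6 KO and Cab39l KO. Wild type was above both knockouts beyond counting error, by log2 differences of -0.33 and -0.29 that TMM scaling turns to 0.06 and 0.11. Plk2 (ENSMUSG00000021701, chr13:110395046-110400844), a polo-like kinase induced by stress and growth factors, was scarce, at 2.55, 1.86 and 2.31 CPM from 200, 239 and 369 UMIs. At this scaling only its ratio of Lpar6 KO to wild type, 0.729 (0.602 to 0.884), and not that of Cab39l KO to wild type, 0.905 (0.760 to 1.08), had an interval below 1. TMM scaling shrinks its log2 difference in the Lpar6 KO, which stays below 0, and turns that in the Cab39l KO positive. A transcript that overlaps Cdkn1a and another that overlaps Gadd45a on the opposite strand were not rows of the matrices.

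The genes of feedback and relay include Mdm2 (ENSMUSG00000020184, chr10:117688875-117710758), the ubiquitin ligase that degrades p53. Wild-type cells held 36.2 CPM (34.9 to 37.6), Lpar6 KO cells 22.7 CPM (21.8 to 23.5) and Cab39l KO cells 25.01 CPM (24.2 to 25.8). Ccng1 (ENSMUSG00000020326, chr11:40748552-40755311), a cyclin that recruits a phosphatase to Mdm2, was at 55.5, 43.7 and 41.8 CPM. In both genes wild type was highest. The Mdm2 differences, -0.65 and -0.52, were -0.26 and -0.12 under TMM scaling, and the Ccng1 differences, -0.34 and -0.40, turned to 0.06 and 0.00. Trp53inp1 (ENSMUSG00000028211, chr4:11156431-11174379), a nuclear co-factor of p53 that also acts in autophagy, was at 37.4 CPM (36.1 to 38.8), 19.8 CPM (19.1 to 20.6) and 19.4 CPM (18.7 to 20.1). Zmat3 (ENSMUSG00000027663, chr3:32334792-32366014), an RNA-binding regulator of splicing, was at 21.1, 12.7 and 12.6 CPM. For both genes the knockout libraries lay together and wild type lay well above them. The differences were -0.88 and -0.91 for Trp53inp1 and -0.68 and -0.70 for Zmat3, and they kept their sign but lost size under TMM scaling, at -0.49 and -0.52 and at -0.30 and -0.31.

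Of the genes of cell death and adhesion, Bax (ENSMUSG00000003873, chr7:45461697-45466898) encodes a pore-forming protein of mitochondrial apoptosis. Its level was 97.6 CPM (95.4 to 99.8) in wild type and 104 CPM in both knockouts (102 to 106 for Lpar6, 102 to 105 for Cab39l). It was the only gene of the 10 that was higher in the knockouts, by log2 differences of 0.09 and 0.09, which became -0.11 and -0.09 relative to genes of like length and level. With at most 10% mitochondrial UMIs these values were -0.01 and -0.01. Its count is uncertain, since the gene model Gm45808, also a row of the matrices, overlaps it on the same strand. Phlda3 (ENSMUSG00000041801, chr1:135766119-135769136), an inhibitor of Akt signalling, was at 81.5 CPM (79.5 to 83.5), 70.0 CPM (68.6 to 71.5) and 75.6 CPM (74.3 to 77.0). Perp (ENSMUSG00000019851, chr10:18845020-18857073), a membrane protein needed for desmosomes in stratified epithelia and also a p63 target, was at 414, 321 and 359.8 CPM in the same order of libraries. Wild type was highest and the Lpar6 KO lowest for both genes at this scaling, with log2 differences of -0.22 and -0.11 for Phlda3 and of -0.36 and -0.20 for Perp, all of which TMM scaling turns positive.

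Genes at least 1.5-fold apart were counted with and without a correction for the libraries' general difference. In the Lpar6 KO against wild type, 0 of the 10 were higher and 3 were lower (Mdm2, Trp53inp1 and Zmat3), where 1.32% of the 12926 genes with at least 50 UMIs were higher and 25.5% lower. In the Cab39l KO against wild type, 0 were higher and 2 were lower (Trp53inp1 and Zmat3), against 0.766 and 25.6% of 13052 genes. The members' shares were thus near that of all genes. Both comparisons use the same wild-type library, so their agreement is not independent. The median over all tested genes was -0.31 and -0.28, and that of the 10 genes was -0.34 in both. TMM factors added 0.40 and 0.41 to the log2 values of Perp. Scarce genes moved less, since 1 was added to each CPM. After TMM scaling 0 of the 10 were 1.5-fold apart in either comparison, and the share of all genes after TMM scaling was not counted.

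The general difference followed transcript length. Over genes with a longest transcript of 1 to 2 kb the median log2 difference from wild type was 0.02 and 0.04 (Lpar6 and Cab39l KOs), and over genes above 5 kb it was -0.65 and -0.69. The genes counted as lower, Mdm2, Trp53inp1 and Zmat3, have longest transcripts of 3.15, 5.43 and 7.80 kb, whereas Bax, the only one above 0, has 1.10 kb. Each difference was therefore also read against the median of the 200 genes nearest in length and level. Zmat3 then stood at 0.05 and 0.09, Ccng1 at 0.05 and 0.00, Trp53inp1 at -0.23 and -0.20, and Mdm2 at -0.28 and -0.20. Bax, above 0 before this step, stood at -0.11 and -0.09. Gadd45a had -0.50 and -0.47, Perp -0.42 and -0.32, Phlda3 -0.39 and -0.29, and Cdkn1a -0.22 and -0.56. Plk2, which rests on few UMIs, stood above 0 in both comparisons. None of the 10 passed 1.5-fold in either direction, where 3.86% of genes were higher and 2.43% lower in the Lpar6 KO and 2.84 and 2.01% in the Cab39l KO.

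**Figure D2:**
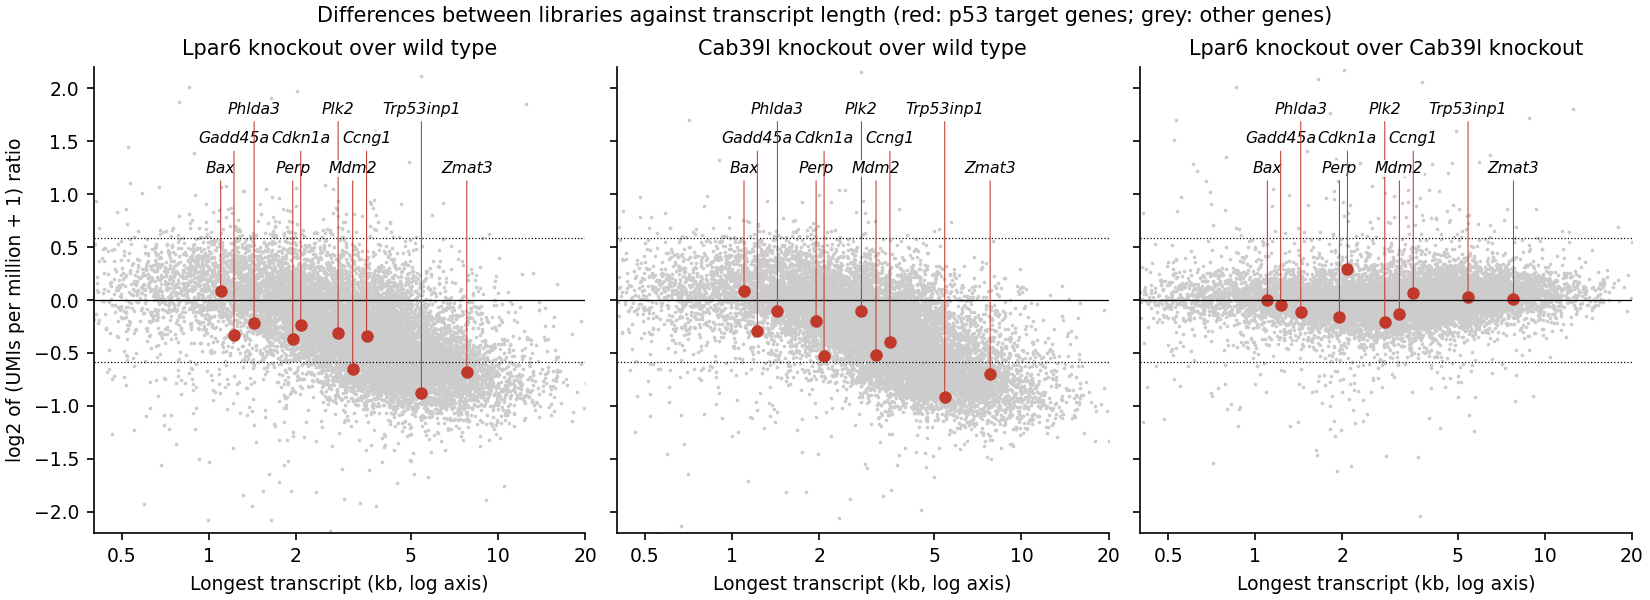
Log2 ratio of CPM (+ 1) between libraries against the longest transcript (kb, log axis), for all genes with at least 50 UMIs (grey; a few lie beyond the axis) and the 10 p53 target genes (red, labelled); dotted lines mark 1.5-fold. Against wild type the cloud and the labelled genes slope down with length, Zmat3 and Trp53inp1 lie within the cloud of long genes, and the panel of the knockouts has no slope, with Cdkn1a above its neighbours. TMM scaling would raise abundant genes in both panels against wild type by about 0.4 and scarce genes by less.

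The knockout libraries, which resemble each other in depth and mitochondrial share, were compared directly. No gene of the list was 1.5-fold apart, where 0.936% of 13145 genes were higher and 1.03% lower in the Lpar6 KO. Cdkn1a had the largest difference on the log2(CPM + 1) scale, with 1.23 times (1.196 to 1.26) as much in the Lpar6 as in the Cab39l KO, a log2 difference of 0.29. The same value was 0.29 with TMM scaling and 0.31 relative to genes of like length and level, and 95.7% of all tested genes lay below it. Plk2 had the lowest ratio of Lpar6 KO to Cab39l KO, 0.806 (0.682 to 0.951), from 239 and 369 UMIs, and Ccng1 was higher at 1.05 (1.01 to 1.08), against 0.00 in log2 for the median of all genes. Perp was lower in the Lpar6 KO by a ratio of 0.892 (0.881 to 0.903), Mdm2 by 0.906 (0.864 to 0.951) and Phlda3 by 0.926 (0.901 to 0.952). Trp53inp1, Zmat3, Bax and Gadd45a had intervals that included 1. Of the 3 basal genes Krt5, Krt15 and Trp63, 2 were at least 1.5-fold lower in the Lpar6 KO. These were the keratins, while Trp63 was nearly level at 95.04 and 97.5 CPM. The 3 genes summed to 497 CPM in the Lpar6 KO and 1546 CPM in the Cab39l KO, and their part in these differences was not tested.

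The p53 gene itself and its regulators were read next, in a list of 19 genes of which 18 had enough UMIs. Trp53 was at 39.1 CPM in wild type, 34.3 CPM in the Lpar6 KO and 39.1 CPM in the Cab39l KO, so only the Lpar6 KO lay apart. Relative to genes of like length and level it stood at 0.17 and 0.30. At least 1.5-fold lower than wild type were 10 of 18 regulators in each knockout, with medians of -0.65 and -0.63, where 25.5 and 25.6% of all genes were lower and the all-gene medians were -0.31 and -0.28, and 1 was higher in the Lpar6 KO and 0 in the Cab39l KO. Relative to like genes, 0 and 1 were lower and 1 and 0 were higher in the Lpar6 and Cab39l KOs. The medians were then -0.11 and -0.03, beside 0.00 for all genes. Among the lower ones were Hipk2, a kinase of p53, at 64.6, 32.3 and 26.3 CPM, and Sirt1, a deacetylase of p53, at 16.4, 7.58 and 6.57 CPM. Sirt1 in the Cab39l KO was the gene still at least 1.5-fold lower after the correction, at -0.63. Of the most abundant, Trp63, which encodes p63, was at 158, 95.04 and 97.5 CPM and Usp7, a deubiquitinase of Mdm2 and p53, at 75.7, 46.2 and 42.7 CPM. Rchy1, another ubiquitin ligase of p53, did not follow them, at 47.3, 48.3 and 48.4 CPM. Cdkn2a, whose products include an inhibitor of Mdm2, was the regulator that was higher, at 1.40, 3.76 and 2.12 CPM. The log2 values of Trp63 and Usp7 were between -0.69 and -0.81, and would be smaller by 0.40 or 0.41 under TMM scaling.

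A further list held 28 other p53 targets, of which 25 had enough UMIs in each comparison. In the Lpar6 KO 1 was at least 1.5-fold higher than wild type and 7 lower, with a median of -0.26, and in the Cab39l KO 1 was higher and 8 lower, with a median of -0.15. These shares lie near the 25.5 and 25.6% of all genes that were lower, and the all-gene medians were -0.31 and -0.28. Relative to like genes the medians were 0.00 and -0.05. The gene that was higher was Triap1, a mitochondrial inhibitor of apoptosis, at 30.96, 56.8 and 52.9 CPM. The lower genes in both comparisons were Btg2, Pmaip1, Apaf1, Ercc5, Polk, Sesn1 and Sesn2, joined by Xpc in the Cab39l KO. Btg2, an antiproliferative gene that is also an immediate early gene, was at 311 CPM in wild type and 158 and 147 CPM in the knockouts. It stayed 1.5-fold apart relative to like genes, at -0.92 and -1.04, and Pmaip1, a BH3-only death gene, did so in the Lpar6 KO at -0.83. In the other direction, 1 gene of this list was 1.5-fold higher relative to like genes in the Lpar6 KO and 0 in the Cab39l KO. The most abundant others did not reach 1.5-fold. Sfn, which encodes 14-3-3 sigma, was at 545.5, 520.3 and 512 CPM, Rps27l at 318, 415 and 372 CPM, and Ei24 at 143, 143 and 150.4 CPM.

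Partners of Bax and Perp were read in the same way, again beside 25.5 and 25.6% of all genes lower. In the BCL2 family, 3 of 10 genes were 1.5-fold lower in the Lpar6 KO (Bcl2l1, Bcl2l11 and Bmf) and 4 in the Cab39l KO (these and Bcl2), and 0 were higher. Of 7 measured desmosome genes, 3 were lower in the Lpar6 KO (Dsp, Dsg2 and Pkp1) and 2 in the Cab39l KO (Dsp and Dsg2). Dsp, the desmosomal plaque protein, was at 160.4 CPM in wild type and 74.2 and 68.7 CPM in the knockouts. After the correction for length and level, 0 genes of both lists were 1.5-fold apart.

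The members were next followed across cells of the same library. From each cell 5000 UMIs were drawn at random (thinning), so that cells of unequal depth could be compared. A median of 3 of the 10 genes were detected per wild-type cell and 2 per knockout cell, against 6 in all libraries without thinning. At least 1 UMI of Perp was found in 87.6% (86.4 to 88.8) of wild-type, 79.1% (77.9 to 80.2) of Lpar6 KO and 82.4% (81.4 to 83.4) of Cab39l KO cells. For Cdkn1a these shares were 33.9% (32.3 to 35.6), 29.9% (28.6 to 31.2) and 26.1% (24.9 to 27.3), and without thinning 75.5, 75.1 and 70.1%. Intervals of shares are Clopper-Pearson intervals.

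Cdkn1a was the most unevenly spread of the 10 genes. Its variance over cells was 1.22, 1.23 and 1.16 times its mean in wild type, Lpar6 KO and Cab39l KO, where sampling alone gives about 1 and the median over genes of like length and level was 1.03, 1.02 and 1.02. The other members were closer to their like genes. Bax had 1.03, 0.989 and 0.996, Ccng1 had 1.09, 1.06 and 1.03, and Phlda3 had 1.10, 1.03 and 1.03. Cells with 3 or more Cdkn1a UMIs out of 5000 numbered 68 (2.14%), 83 (1.72%) and 58 (1.06%), against a median of 1.09, 0.714 and 0.439% for like genes.

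**Figure D3:**
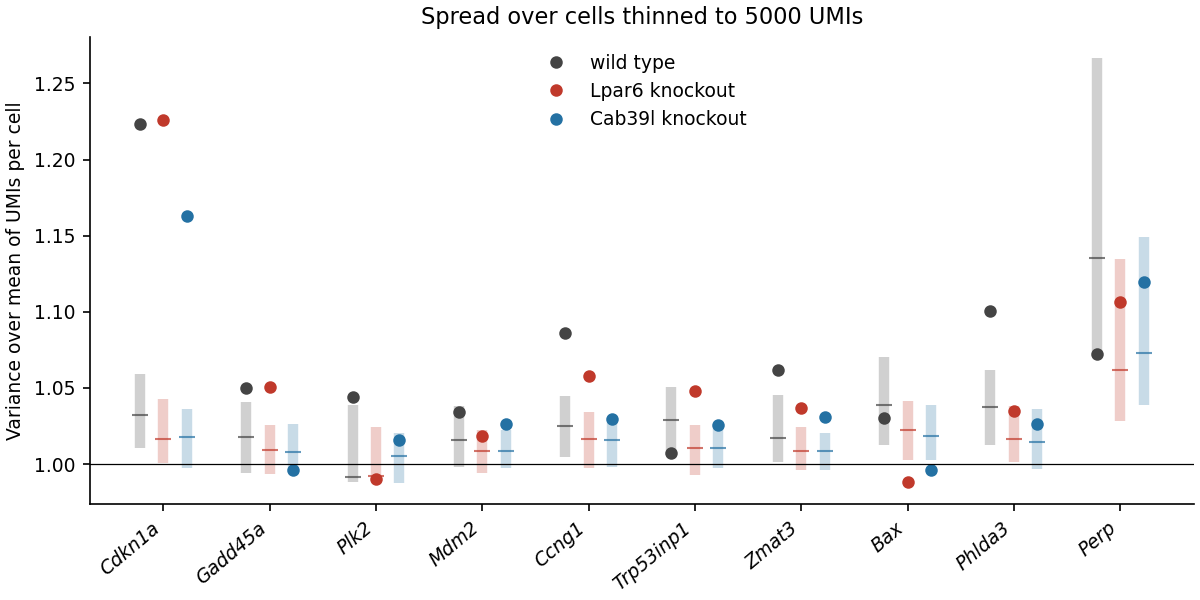
Variance over mean of thinned UMIs per cell for each p53 target gene in the wild-type, Lpar6 KO and Cab39l KO libraries (points), with the interquartile range of the 200 genes nearest in length and level (bars) and their median (ticks). The Cdkn1a points, at 1.16 to 1.23, lie above their bars in every library, whereas most other genes lie near theirs.

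Common variation over cells was read from thinned counts, in which 9 of the 10 genes average under 1 UMI per cell, so that r is held near 0 by sparsity. Over the 45 pairs of genes, Pearson's r of thinned log counts ranged from -0.045 to 0.048, in 3176, 4834 and 5466 cells, and 0 pairs reached 0.1 in any library. Without thinning, where depth is shared, the highest r was 0.125 and 18 pairs were above 0 in every library. The median r was 0.00, 0.01 and 0.01, and 9 pairs were above 0 in every library. Phlda3 with Perp had the highest lowest value of the 3 libraries, 0.03, followed by Ccng1 with Zmat3 at 0.01. Mdm2 with Trp53inp1 had 0.05, 0.01 and 0.02. Against the sum of the other 9 genes, r lay between -0.017 and 0.043. Mdm2 had 0.043 in wild type, where the upper quartile of its like genes was 0.019, and Cdkn1a had 0.038 in the Cab39l KO, where it was 0.013. Cells of 1 library share their preparation, and in counts this sparse correlations of this size are no finding.

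**Figure D4:**
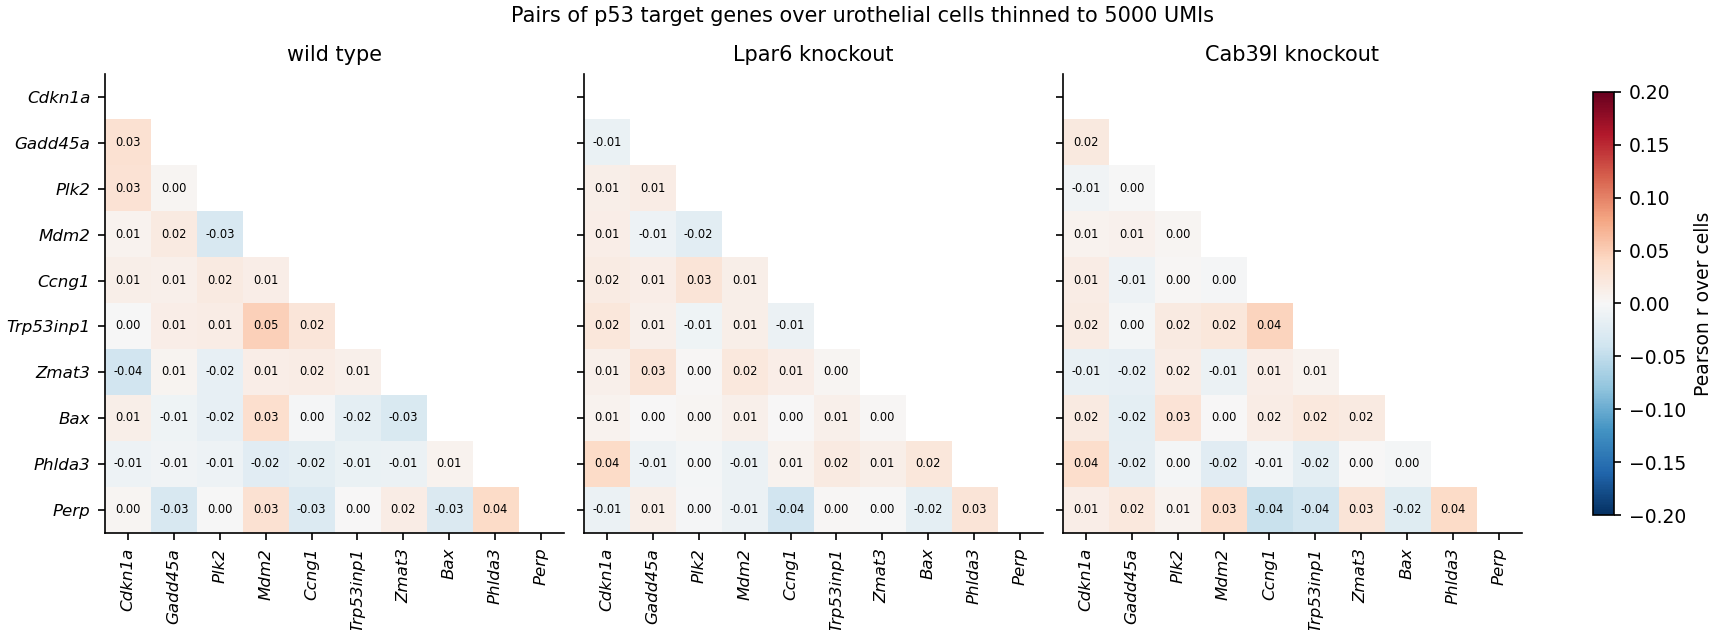
Pearson's r over urothelial cells, thinned to 5000 UMIs, for each pair of p53 target genes in the wild-type, Lpar6 KO and Cab39l KO libraries; the colour scale runs from -0.2 to 0.2 and each square gives its value. Every square is between -0.045 and 0.048.

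For each gene, the genes that varied most like it were ranked by their lowest r over the 3 libraries, out of 4258 genes with at least 0.1 UMI per thinned cell in each library, which leaves Plk2, Zmat3 and Trp53inp1 out of the genes that could be named. These r are the highest of many small values and, like those above, no finding. For Cdkn1a these were Ly6d (0.05), Jun (0.05) and Sfn (0.05). For Phlda3 they were Krt15 (0.08), Wfdc2 (0.07) and Gsta4 (0.06), and for Perp they were Aqp3 (0.07), Krt5 (0.06) and Igfbp2 (0.06). Krt5 and Krt15 are keratins of basal urothelial cells. The lowest r of the leading gene was smaller for the rest, among them Atrx for Zmat3 (0.04), mt-Co2 for Trp53inp1 (0.04), Tcf25 for Mdm2 (0.03), Cggbp1 for Ccng1 (0.03), Hspa8 for Gadd45a (0.03), Nudt9 for Bax (0.03) and Mat2a for Plk2 (0.03).

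Cells of each library were then ordered by the summed share of the basal genes Krt5, Krt15 and Trp63 and split into tertiles. Phlda3 rose with this share, from 61.4 to 111 CPM in wild type, from 61.5 to 85.4 CPM in the Lpar6 KO and from 60.2 to 101 CPM in the Cab39l KO, bottom to top tertile. The ratios were 1.81 (1.70 to 1.92), 1.39 (1.32 to 1.46) and 1.67 (1.60 to 1.75), and the median log2 ratio of like genes was -0.01, -0.03 and -0.06. In wild type 2.82% of genes were at least 1.5-fold higher in the top tertile, and 1.42 and 1.99% in the knockouts. By the summed share of the umbrella-cell genes Krt20, Upk2 and Prss27, the Phlda3 ratios were 0.539, 0.771 and 0.665, where 2.67, 0.742 and 1.72% of genes were at least 1.5-fold lower. The wild-type median mitochondrial share rose from 6.76 to 12.1% over this umbrella split, and its part was not tested. Perp was also higher in the basal tertile of each library, at 1.11, 1.21 and 1.22 times. Zmat3 and Ccng1 were lower there, at 0.777, 0.875 and 0.803 times and at 0.844, 0.876 and 0.857 times. Depth moved with the split, with a wild-type median of 18542 UMIs in the top and 27482 in the bottom tertile. Within cells of 20000 to 40000 UMIs and at most 8% mitochondrial UMIs, log2 ratios stayed at 0.63, 0.33 and 0.58 for Phlda3, but moved to -0.02, -0.05 and 0.05 for Ccng1.

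The same was done with the summed share of 17 immediate early genes, which respond within minutes to growth factors, stress and tissue handling. Cdkn1a was higher in the top tertile by 1.34 (1.27 to 1.42) in wild type, 1.13 (1.08 to 1.18) in the Lpar6 KO and 1.28 (1.22 to 1.34) in the Cab39l KO. Like genes had a median log2 ratio of 0.00, -0.01 and -0.01. Plk2 had ratios of 1.56 (1.11 to 2.22), 2.28 (1.62 to 3.24) and 1.90 (1.45 to 2.5), where 1.66, 0.726 and 1.14% of genes were at least 1.5-fold higher. Plk2 was scarcer in urothelial cells than in immune barcodes, at 2.55 against 11.7 CPM in wild type, and the part of free RNA in its ratios was not tested. Mdm2 was higher by 1.12, 1.19 and 1.17 times and Perp by 1.09, 1.16 and 1.16 times, whereas the Bax intervals included 1 in each library, at 0.968, 0.988 and 0.994. The immediate early genes also differed between libraries, with 1578 CPM summed in wild type against 958 and 959.96 CPM, and 10 of 16 measured genes at least 1.5-fold lower in each knockout, against 25.5 and 25.6% of all genes. Relative to like genes 10 and 9 were lower, against 2.43 and 2.01% of all genes. Their part in the Cdkn1a differences between libraries was not tested.

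**Figure D5:**
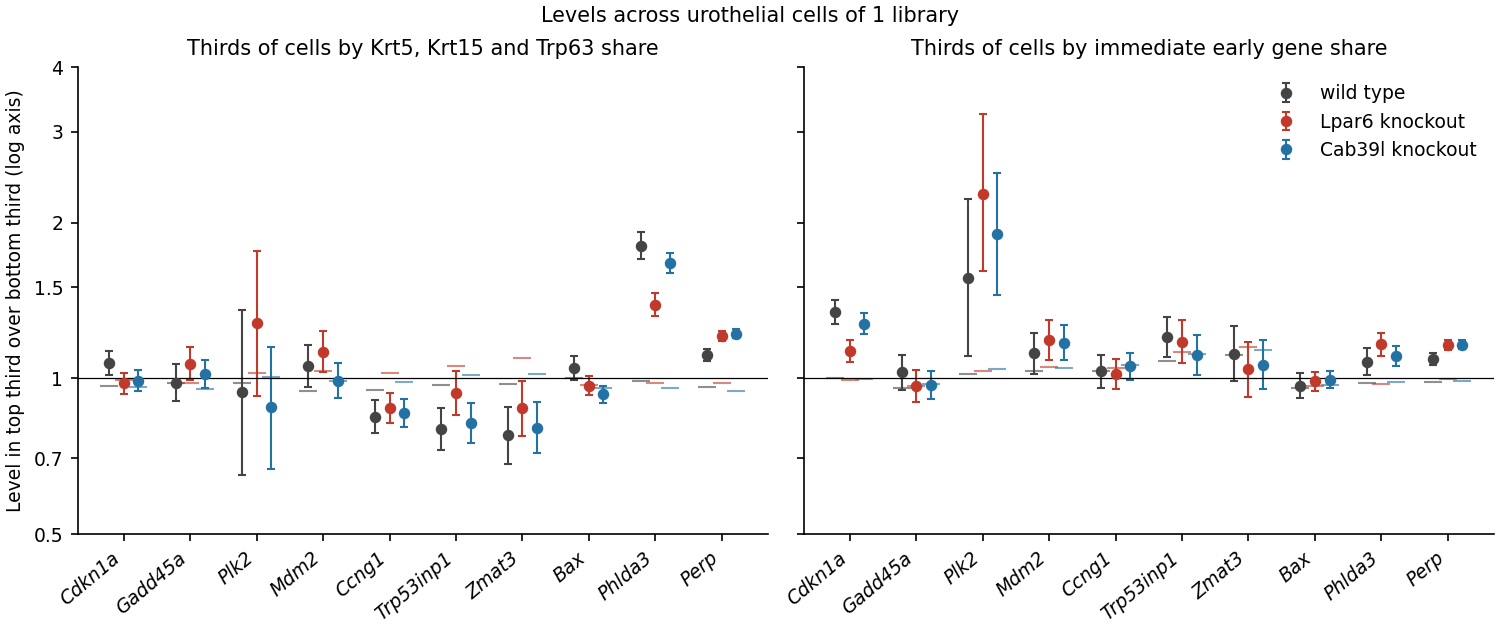
Level of each p53 target gene in the top tertile of cells over the bottom tertile (ratio, log axis, exact 95% intervals), with cells ordered by the share of Krt5, Krt15 and Trp63 (left) or of 17 immediate early genes (right), in each library; ticks mark the median of like genes. Phlda3 stands out on the left at 1.39 to 1.81. On the right Cdkn1a is at 1.13 to 1.34, and in the Lpar6 KO Mdm2, Trp53inp1, Phlda3 and Perp lie above it. Plk2, at 1.56 to 2.28, rests on few UMIs, and the part of free RNA was not tested.

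The cells with 3 or more Cdkn1a UMIs were compared with the cells that had none. Immediate early genes summed to 1.94 times (1.89 to 1.99) the level of the other cells in wild type, 1.15 times (1.11 to 1.199) in the Lpar6 KO and 1.13 times (1.09 to 1.18) in the Cab39l KO. In wild type Atf3, an immediate early gene at 8.83 times, had UMIs in only 13 of 68 such cells and up to 39 in a single cell. Of all genes, 3.17, 3.26 and 3.7% were at least 1.5-fold higher and 5.62, 4.49 and 6.73% lower. Sfn was higher in every library, by 1.44, 1.26 and 1.21 times. Of the other members, Ccng1, Bax and Phlda3 had intervals above 1 in both knockouts, and none of these 3 did in wild type. Trp53inp1 had one in the Lpar6 KO, at 1.33 (1.02 to 1.72), and Perp in the Cab39l KO, at 1.11 (1.03 to 1.19). Gadd45a was lower in the Cab39l KO, at 0.695 (0.520 to 0.910), and Plk2 higher in wild type, at 2.52 (1.23 to 4.68) from 11 UMIs in the high cells. No share of all genes and no like-gene value is given for these intervals. Ccng1 ratios were 1.17 (0.962 to 1.41), 1.57 (1.33 to 1.84) and 1.41 (1.16 to 1.70), Bax ratios 1.03, 1.203 and 1.39, and Phlda3 ratios 0.931, 1.29 and 1.33. The high cells were deeper in every library, at medians of 25267, 28500 and 32970 UMIs against 22167, 26918 and 29517.5 UMIs. Their mitochondrial share was lower, at 8.05, 5.80 and 5.58% against 9.12, 6.33 and 6.23% in the cells with none. The part of either in these ratios was not tested.

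Levels also moved with the mitochondrial share of cells. From the bottom to the top tertile by this share, wild-type Zmat3 went from 15.5 to 30.5 CPM, a ratio of 1.97 (1.74 to 2.22), and Trp53inp1 from 28.2 to 49.5 CPM, a ratio of 1.75 (1.60 to 1.92). The median log2 ratio of like genes was 0.73 for Zmat3 and 0.69 for Trp53inp1, beside 0.93 and 0.79 for the genes themselves. Bax went from 108 to 78.4 CPM, a log2 ratio of -0.46, as did its like genes at -0.46. In wild type 32.5% of all genes were at least 1.5-fold higher in the top tertile, against 0.333 and 1.02% in the knockouts, where the Zmat3 ratios were 1.10 and 1.09. Cdkn1a fell with the mitochondrial share, by ratios of 0.908 (0.856 to 0.963) in wild type, 0.688 (0.655 to 0.723) in Lpar6 KO cells and 0.742 (0.707 to 0.780) in Cab39l KO cells, while the log2 ratios of its like genes were -0.02, -0.11 and -0.08. Among the 1432, 627 and 814 barcodes left out for more than 20% mitochondrial UMIs, Trp53inp1 was at 61.0, 32.4 and 28.4 CPM and Mdm2 at 63.7, 40.3 and 42.0 CPM. These and Zmat3, at 34.5, 20.2 and 21.4 CPM, were above their levels in urothelial cells. Cdkn1a, Gadd45a, Ccng1, Bax, Phlda3 and Perp were below theirs in every library, with wild-type Cdkn1a at 58.9 CPM and Bax at 52.7 CPM. CPM counts mitochondrial UMIs in the total, which lowers every other gene in barcodes rich in them. No like genes were set beside these levels, so the part of this in the lower values was not tested. The Plk2 intervals overlapped. With at most 10% mitochondrial UMIs, the log2 differences of the Lpar6 KO from wild type were -0.52 for Mdm2, -0.43 for Zmat3 and -0.71 for Trp53inp1, so that 1 gene of the 10 was still 1.5-fold lower.

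Immune barcodes of the same libraries show how much signal arises where urothelial RNA should be absent, from 643, 73 and 286 barcodes with median depths of 3227, 2498 and 3443.5 UMIs. Cells were thinned to 1500 UMIs for this. Perp, an epithelial gene, had a UMI in 46.2, 39.2 and 42.2% of urothelial cells and in 11.8, 13.7 and 11.2% of immune barcodes. Cdkn1a had a UMI in 12.5% of urothelial and 6.07% of immune barcodes in wild type, and Phlda3 in 10.9 and 2.64%. The intervals of Cdkn1a overlapped between urothelial and immune barcodes in both knockouts, as did those of Phlda3 in the Lpar6 KO. Bax was found more often in immune barcodes, at 21.3, 24.7 and 18.5%, than in urothelial cells, at 13.5, 14.15 and 14.1%. Its intervals overlapped in the Cab39l KO, and its immune share in the Lpar6 KO rests on 18 of 73 barcodes. The shares of Gadd45a, Mdm2 and Ccng1 had overlapping intervals in both kinds of barcodes in each library. Immune cells can transcribe these genes, Plk2 and Bax themselves, so of the 10 only Perp serves as a measure of free RNA. The uroplakin genes, outside the 10, were found in immune barcodes more often than Perp. At 1500 UMIs, Upk3a had a UMI in 55.5, 75.3 and 66.8% of immune barcodes and Upk1a in 35.0, 50.7 and 53.5%. The median uroplakin share of immune barcodes was 0.106, 0.207 and 0.141%, against a minimum of 0.2% in the urothelial rule. In the Lpar6 KO, with 73 barcodes, that minimum alone thus did not set them apart. The part of free RNA in the urothelial levels was not tested. Plk2 was found in at most 0.384% of urothelial cells and in 0.699 to 2.74% of immune barcodes, so whether its UMIs in urothelial cells come from those cells or from free RNA was not tested.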

How the data were processed

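The authors deposited, per sample, a 10x matrix of UMI counts (whole numbers, not normalized) with its gene and barcode lists. Per the submitters' processing notes, Cell Ranger 3.0.2 and mm10 were used; the sources used here do not give the annotation release. Groups come from the sample labels, with 1 library of 15 pooled mice each. The 10 members and all gene lists were chosen with earlier results of these data known.

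Counts were summed over urothelial cells (at least 5000 UMIs, at most 20% mitochondrial, at least 0.2% uroplakin) and divided by the total to give CPM. Log2 differences used CPM + 1. Calls were 1.5-fold, among genes with at least 50 UMIs over both libraries. Immune barcodes had at least 1500 UMIs, at most 20% mitochondrial UMIs, and an immune-list share of at least 0.2% that exceeded the uroplakin share. Like genes were the 200 nearest in longest transcript and mean CPM. Transcript lengths and gene positions came from a GENCODE annotation of mm10 and were known for 31011 of 31053 genes (42 without). Start-site windows came from RefSeq. Intervals are exact 95% Poisson (levels), conditional (ratios) or Clopper-Pearson (shares) intervals. UMIs mark molecules, and the pooled mice add a spread that these intervals leave out. No doublets were removed, since Scrublet's own threshold called only 22, 1 and 1 barcodes; an alternative left out the top 6%. The tertiles, the spread over cells and the Cdkn1a-high cells were added after the design was written.

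The named genes were all members, Trp53, those members of each other list that were 1.5-fold apart, up to 4 of its most abundant genes, and the 3 genes most like each member over cells; of these the text prints the ones its sentences turn on. On simulated counts the estimates fell within 0.25 log2 for 91.5% of 200 changed genes for the Lpar6 KO against wild type (13170 genes), 94% for the Cab39l KO against wild type (13343 genes) and 90% between the knockouts (13144 genes). The simulated counts held counting error only. They had the same length trend in every comparison, also between the knockouts, where the data had no slope. These shares therefore check the code and do not measure accuracy on the data. Alternatives changed the scaling (edgeR TMM factors or median-of-ratios), pseudocount, cell filters, doublets, cell weight, thinning and the number of like genes. Tools were Python 3.11.15, numpy 2.4.6, scipy 1.17.1, pandas 2.3.3, scanpy 1.11.5, matplotlib 3.10.9, R 4.3.3 and edgeR 4.0.16.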

Additional observations from a re-analysis of the deposited data

Results flagged for a closer look

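In 5 cases the ratio of the top to the bottom tertile of cells moved one way in one library and the other way in another. The differences between libraries were not tested, and no cause was tested. By umbrella-cell share, Bax had a ratio of 0.861 in wild type, 1.09 in the Lpar6 KO and 1.05 in the Cab39l KO. Its like genes turned in the same way, with median log2 ratios of -0.18, 0.09 and 0.06 beside -0.21, 0.12 and 0.07 for Bax. By mitochondrial share, Gadd45a had 1.38 in wild type against 0.914 and 0.885 in the knockouts, and like genes had log2 values of -0.36, -0.12 and -0.11. By the same share, Ccng1 had 1.47 in wild type and 1.09 in the Cab39l KO against 0.913 in the Lpar6 KO, with 0.38, -0.03 and 0.05 for like genes in wild type and in the Lpar6 and Cab39l KO. Perp had 1.06 in wild type against 0.970 in the Lpar6 and 0.921 in the Cab39l KO, with -0.14, -0.13 and -0.14 for like genes. By depth, Zmat3 had 0.774 in wild type, 1.17 in the Lpar6 KO and 0.9998 in the Cab39l KO, the last with an interval that included 1, and like genes had -0.43, -0.15 and -0.22.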

How the results depend on the processing

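The number of p53 target genes at least 1.5-fold lower than wild type depended on the processing. In the Lpar6 KO it was 3, and it became 0 with TMM factors, 0 with median-of-ratios factors, 0 relative to the nearest 200, 100 or 400 like genes, and 1 each with a pseudocount of 10 CPM, with at most 10% mitochondrial UMIs, or in cells of 20000 to 40000 UMIs with at most 8% mitochondrial UMIs, a setting chosen after seeing the data. In the Cab39l KO it was 2, and it became 0 with TMM, median-of-ratios or like genes (200, 100 or 400), and 1 with the pseudocount of 10 CPM or with at most 10% mitochondrial UMIs, but 3 with no mitochondrial maximum. Of all genes, 2.43 and 2.01% were lower in the Lpar6 and Cab39l KOs relative to the nearest 200 like genes. For the other settings named here the share of all genes was not counted, so these counts show nothing particular to the 10 genes. Relative to the nearest 200 like genes, 4 of the 10 genes changed sign in the Lpar6 KO and 3 in the Cab39l KO, Bax among them. Zmat3 changed sign relative to the nearest 200, 100 and 400 like genes, to log2 values of 0.0523, 0.0321 and 0.0468 in the Lpar6 KO and 0.0875, 0.0771 and 0.0900 in the Cab39l KO. The cause was not tested. The counts of genes that were higher, the counts between the knockouts and the number of pairs with r of at least 0.1 in every library were 0 in each setting run. Without thinning, the highest r in any library was 0.125 against 0.048, and 18 pairs against 9 were above 0 in every library. Of 60 tertile values, 13 changed sign within cells of 20000 to 40000 UMIs and at most 8% mitochondrial UMIs. No paired analysis was possible because each group is 1 library and the labels give no replicate numbers that groups share. With 1 library a group, no library could be left out.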
